A study of Mus musculus with 153 samples.

Results

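The comparison described here sets 6 libraries from mice given a foot shock in a new context against 4 libraries from mice placed in the same kind of context without shock, all made from the ribosome-bound RNA of parvalbumin neurons and labelled 60 min. These 10 libraries were chosen by the line, the fraction, the time and the treatment in their labels, out of 153 samples in the series. The series sequenced dorsal hippocampus of mice in which neurons of one class carry a tagged ribosome, both as the purified fraction and as the whole lysate, from several driver lines and at more than one time. All mice of the Pvalb sets used here, controls included, have the genotype Pvalb.Cre/TRAPfl, in which Cre recombinase under the control of the parvalbumin gene switches on the TRAP allele. The group called shock was labelled as conditioned, the group called box saw the new context only, and 6 further purified libraries came from home cage mice that entered the fit and are given as a reference level. The labels give neither the age nor the sex of the mice (by Y-linked transcripts 3 of the 6 shock and 2 of the 4 box libraries were male), and they do not say whether each library came from its own animal, so a p-value here measures only the spread between these libraries. Further values came from 10 lysates of the same line and time, from 9 purified libraries of the Pvalb set labelled 15 min and from 8 purified libraries of the Camk2a set labelled 60 min. The Camk2a set is of another driver line.

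Parvalbumin neurons are fast-spiking inhibitory cells that form synapses on the cell bodies and axon initial segments of hippocampal pyramidal neurons and pace their firing. They receive excitatory input on largely spine-free dendrites, where scaffold proteins of the SHANK, DLGAP and DLG families hold glutamate receptors in place. Translating ribosome affinity purification (TRAP) pulls down tagged ribosomes with the RNA bound to them, so a level in the purified fraction reads how much of a gene's RNA is on ribosomes of the marked cells, together with RNA carried over from other cells. Foot shock in a new context is the training trial of contextual fear conditioning, after which activity-induced genes such as Arc and Fos are known to be transcribed in hippocampal neurons.

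The purified fraction carried the identity of its label. All 10 listed markers of parvalbumin neurons had a higher mean level in the purified box and shock libraries than in the matching lysates, with a median log2 difference of 2.85, and 0 of 12 pyramidal neuron markers did (median -1.55). Of the markers of all GABA neurons 12 of 12 were also higher (median 2.02), and of those of somatostatin neurons 8 of 10 (median 0.44). Levels are given as CPM, the counts of a gene scaled to a common library total. Pvalb itself, the calcium-binding protein that names the cells, ran from 763 to 1103 CPM with a median of 988 in the shock libraries and stood at 648, 782, 783 and 936 CPM in the box libraries, which overlapped. Total counts per library ran from 55234644 to 167434187 in the shock group and from 81911459 to 170445807 in the box group.

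Some libraries stood apart in ways that the treatment labels do not name. In shock libraries 3, 4, 5 and 6, genes with GC-rich transcripts were read more and genes with AT-rich transcripts less than in the other purified libraries: the slope of log2 CPM on transcript GC content was 0.50, 0.62, 0.48 and 0.63 per 10 percentage points of GC. Shock libraries 1 and 2 had slopes of -0.07 and -0.09, and the box libraries -0.01, -0.35, 0.24 and -0.12, so these shared a range. RNA of the choroid plexus, the secretory epithelium of the ventricles, also varied: the summed level of its 7 markers was 147 CPM in box 1 but 3414 to 8114 CPM in the other box libraries, and 121 to 433 CPM in shock libraries 1 to 5 but 5942 CPM in shock 6. Of 21 library measures (cell class scores, slopes, depth and detection), none separated shock from box after adjustment (two-sided exact permutation tests over 210 splits, smallest possible p 0.00476, Benjamini-Hochberg adjusted). The difference in GC slope was 0.40 with an exact p of 0.0762 and an adjusted p of 0.520. The smallest p of these measures belonged to the slope of log2 CPM on transcript length, -0.0181 ± 0.0114 per doubling in the shock and 0.00547 ± 0.00846 in the box libraries (mean and SD, n = 6 and n = 4, exact p = 0.0143, adjusted p = 0.30). The parvalbumin marker score, the mean log2(CPM + 1) over the list, differed by -0.02 (exact p = 0.824, adjusted p = 0.938). In bulk libraries fewer cells of a type and less RNA per cell cannot be told apart.

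**Figure D1:**
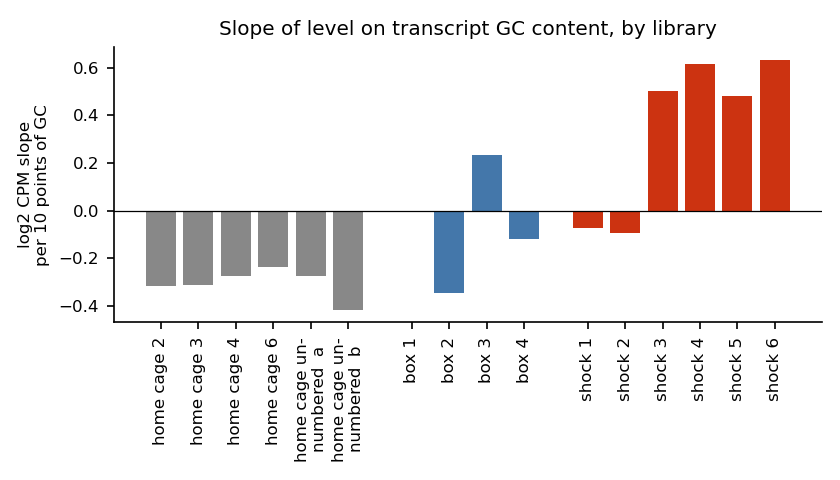
Slope of log2 CPM on transcript GC content (y axis, log2 units per 10 percentage points of GC, length held in the same fit) for each purified Pvalb library at 60 min (x axis, 1 bar per library; home cage grey, box blue, shock red). Shock libraries 3 to 6 lie between 0.48 and 0.63, above all other libraries; box 1 is close to 0.

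The first question was which ribosome-bound RNAs differed between shock and context alone. No gene passed the test: of 16135 genes tested with edgeR's quasi-likelihood test over the shock, box and home cage libraries, 0% were called higher and 0% lower at an adjusted p under 0.05, and the smallest adjusted p was 0.171. At an unadjusted p under 0.05, 1848 genes were higher (11.5%) and 1458 lower (9.04%). In 110 genes (0.682%) every shock library was above every box library, and in 228 (1.41%) every shock library was below. DESeq2 on the same libraries called 272 genes higher and 321 lower (3.15% and 3.72% of the 8625 genes it adjusted). The count also turned on 1 library: without shock 2, edgeR called 738 genes higher (4.6%) and 681 lower (4.24%). Of the 593 DESeq2 calls, 549 (92.6%) were among these edgeR calls, which is 38.7% of the latter, all in the same direction. With offsets for GC content and transcript length no gene passed, and 1254 genes (8.08%) were higher and 484 (3.12%) lower at an unadjusted p under 0.05. The genes below are therefore described by their values and their rank, and none of them is called changed.

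The 12 genes with the smallest p among those with a higher mean after shock included Ppp1r9b, Shank3, Shank1 and Dlgap3, which encode proteins of the excitatory postsynapse. Ppp1r9b, which encodes spinophilin, a scaffold that brings protein phosphatase to dendritic synapses, ran from 202 to 306 CPM with a median of 221 in the shock libraries and stood at 117, 131, 154 and 164 CPM in the box libraries. Every shock library lay above every box library, with a log2 fold change, shock over box, of 0.73 ± 0.15 (SE) and an adjusted p of 0.171 (edgeR). Shank3, a master scaffold of the postsynaptic density, ran from 24.4 to 45.6 CPM with a median of 33.5 after shock and stood at 11.6, 17.5, 19.7 and 22.9 CPM after context alone. Its groups did not overlap either, and its log2 fold change was 0.95 ± 0.23 (SE, edgeR adjusted p = 0.171). Its paralog Shank1 ran from 654 to 1178 CPM with a median of 943 after shock, against 322, 519, 598 and 632 CPM in the box libraries. These also did not overlap, at a log2 fold change of 0.89 ± 0.22 (SE).

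Dlgap3, which links SHANK proteins to PSD-95, ran from 55.9 to 113 CPM with a median of 102 after shock and stood at 35.4, 48.3, 53.7 and 63.1 CPM in the box libraries, so that the lowest shock library lay inside the box range. Its log2 fold change was 0.90 ± 0.21 (SE). Srcin1, a Src-kinase inhibitor found at synapses, ran from 99.3 to 147 CPM with a median of 116 against a narrow 72.6, 73.3, 77.8 and 79.9 CPM, without overlap. Eef1a2, the translation elongation factor that mature neurons use, ran from 20.2 to 37.2 CPM with a median of 22.8 against 10.3, 13.1, 13.5 and 15.7 CPM, again without overlap, and the highest of these values came from shock 3. The other leading genes of this direction were Vstm2l, Flot1 (a membrane-raft protein), Rpp21 (a subunit of ribonuclease P), Dpysl4 (of the collapsin response mediator family), Hdac11 (a histone deacetylase) and Atg7 (an activating enzyme of autophagy), at log2 fold changes between 0.65 and 1.02. Of these 6, the groups of Dpysl4 and Hdac11 did not overlap.

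The 12 genes with the smallest p among those with a lower mean after shock included the receptor genes Acvr2a and Lrp6, the kinase gene Prkaa2 and the glycosyltransferase gene B3galt1. B3galt1, whose enzyme adds galactose to sugar chains, ran from 25.6 to 44.1 CPM with a median of 30.6 in the shock libraries and stood at 55.9, 63.6, 78.4 and 91.1 CPM in the box libraries. The groups did not overlap, and the log2 fold change was -1.10 ± 0.19 (SE, edgeR adjusted p = 0.171). Prkaa2, a catalytic subunit of the energy sensor AMP-activated kinase, ran from 7.49 to 22.4 CPM with a median of 15.0 after shock and stood at 25.3, 32.5, 40.2 and 44.1 CPM after context alone, again without overlap, at -1.32 ± 0.27 (SE). Acvr2a, a receptor for activins, ran from 6.46 to 15.5 CPM with a median of 9.93 against 22.6, 25.0, 25.4 and 39.7 CPM. Its groups did not overlap and its log2 fold change was -1.43 ± 0.29 (SE).

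Lrp6, a Wnt co-receptor, ran from 10.4 to 12.7 CPM with a median of 12.1 in the shock libraries and stood at 19, 21.9, 22.6 and 23.1 CPM in the box libraries without overlap, at -0.85 ± 0.16 (SE). Cacna2d1, an auxiliary subunit of voltage-gated calcium channels and the target of gabapentin, ran from 7.36 to 16.6 CPM with a median of 10.9 against 16.7, 29.5, 31.6 and 32.7 CPM, and the highest shock value fell just short of the lowest box value. Malat1, an abundant nuclear long non-coding RNA, ran from 1179 to 2298 CPM with a median of 1709.9 against 2309.5, 3131, 3295 and 4540.1 CPM, so that its groups only just separated. Yod1 (a deubiquitinase), Thumpd3, Ube2q2 (a ubiquitin-conjugating enzyme), Samd8 and Ahcyl2 completed the list, at log2 fold changes between -1.85 and -0.66. Of these 5, the groups of Thumpd3 overlapped. The zinc finger gene Zfp951 was nearly absent after shock, with 10 counts in all over the 6 shock libraries and 2640 over the 4 box libraries, but its home cage libraries ran from 0 to 4.57 CPM, across both groups.

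**Figure D2:**
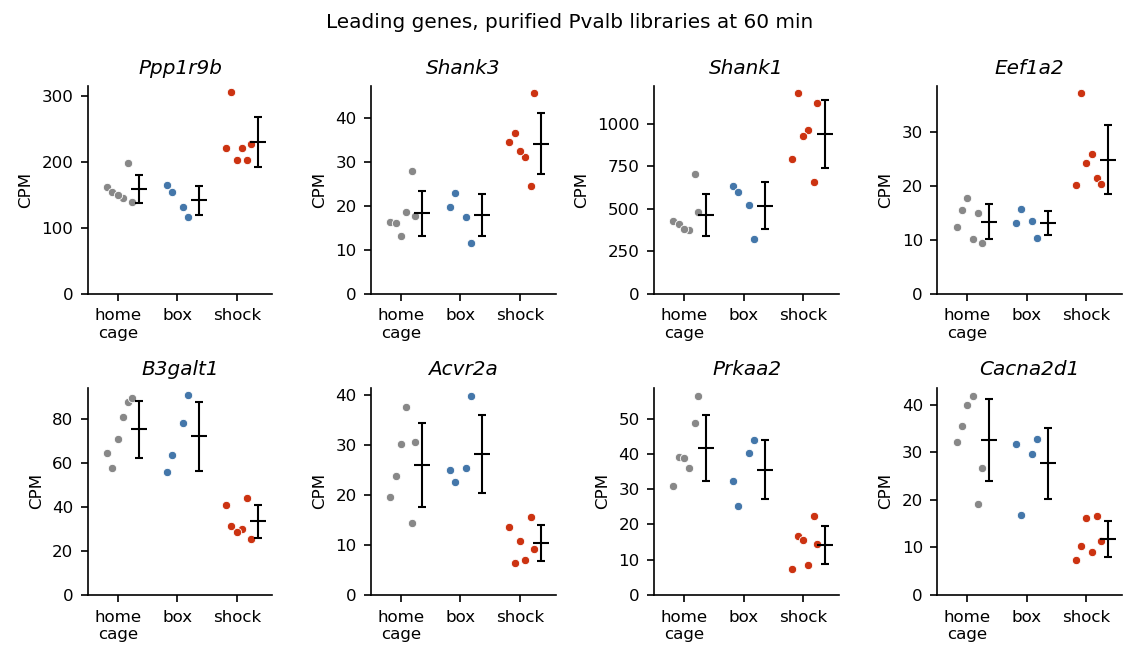
Levels (y axis, CPM, linear from 0) of 4 leading higher genes (top) and 4 leading lower genes (bottom) in each purified Pvalb library at 60 min (x axis: home cage grey, 6 libraries; box blue, 4; shock red, 6), with mean and SD as black bars. In all 8 genes the shock points lie on one side of the box points.

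The 24 leading genes were re-estimated without shock libraries 3 to 6, that is with shock 1 and 2 against the 4 box libraries. All 24 kept the sign of their fold change, at a median of 0.756 times the size with all libraries, and 0 passed. Shank3 stood at 0.75, Shank1 at 0.51, Prkaa2 at -1.25 and Acvr2a at -0.94 on the log2 scale. With offsets for GC content and transcript length fitted in each library, all 24 kept their sign at a median of 0.611 times the size, and 0 passed. With those offsets and without shock 2, 3 of the 24 passed, and over all genes 78 (0.505%) were called higher and 8 (0.0518%) lower. The 24 genes were picked by small p in these same libraries. Where every shock library lay on one side of every box library, leaving libraries out could hardly turn a sign. The kept signs are therefore no independent check.

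The leading genes of the 2 directions differed in base composition. The 12 higher ones had transcripts of 53.0% to 69.2% GC and the 12 lower ones of 39.1% to 47.9% GC. The first 120 coding bases of a pair from each side are shown as examples, 5′ to 3′ from the longest GENCODE M21 transcript of each gene, with the start codon in capitals.
Ppp1r9b: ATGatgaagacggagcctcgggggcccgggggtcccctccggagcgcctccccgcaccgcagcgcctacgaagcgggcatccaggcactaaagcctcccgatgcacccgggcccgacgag
Shank1: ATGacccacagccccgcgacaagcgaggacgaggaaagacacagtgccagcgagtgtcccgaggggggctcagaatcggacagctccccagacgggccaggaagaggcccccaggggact
B3galt1: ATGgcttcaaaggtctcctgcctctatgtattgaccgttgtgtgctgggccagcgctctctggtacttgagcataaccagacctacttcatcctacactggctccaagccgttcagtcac
Acvr2a: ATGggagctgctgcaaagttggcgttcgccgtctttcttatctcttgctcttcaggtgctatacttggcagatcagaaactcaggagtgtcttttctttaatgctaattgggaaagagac
These stretches hold 72.5%, 66.7%, 52.5% and 45% GC, and the whole coding sequences 63.8%, 63.6%, 46.9% and 43.3%. The B3galt1 stretch does not show the low GC content of its whole transcript, 40.1%. In GRCm38 the genes lie on the forward strand at chr11:94991035-95006899, chr7:44310253-44360572, chr2:67565871-68122689 and chr2:48814109-48903269.

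The same relation ran through all genes. Across the 15524 genes with a matched transcript, Spearman's rho between the fold change and transcript GC content was 0.57, as a description, since genes share libraries and are not replicates. The 874 genes of up to 40% GC had a median log2 fold change of -0.56, with 11.3% of them higher after shock, and the 727 genes above 60% GC a median of 0.56, with 88.7% higher. With shock 1 and 2 alone these medians were -0.04 and -0.10. In the lysates of the same line they were 0.02 and 0.11, in the Pvalb libraries at 15 min -0.44 and 0.60, and in the Camk2a libraries at 60 min 0.53 and -0.45, the opposite order. The part that the GC relation of shock libraries 3 to 6 has in the gene results was not tested beyond the values with offsets and without these libraries.

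**Figure D3:**
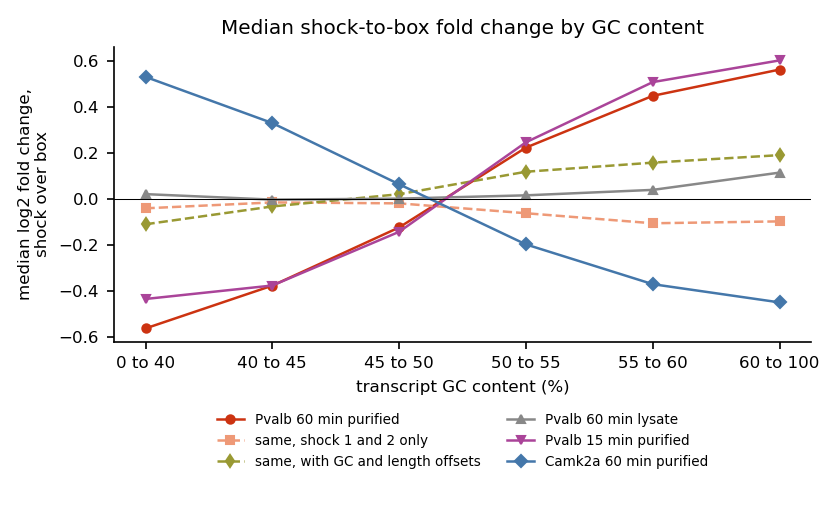
Median log2 fold change, shock over box (y axis), of genes in 6 ranges of transcript GC content (x axis, percent), 1 line per comparison or setting. The Pvalb purified line at 60 min (red circles) climbs from -0.56 to 0.56, the Camk2a line (blue diamonds) falls from 0.53 to -0.45, and the lines for lysate and for shock 1 and 2 only stay between -0.11 and 0.11.

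Gene groups are given by how many of their tested members had a higher mean after shock and by their median log2 fold change, beside 8452 of 16135 (52.4%) and 0.04 over all genes tested. Over all genes this median was 0.07 with GC and length offsets and -0.05 without shock libraries 3 to 6. No member of any list passed the test. Postsynaptic scaffold genes had a median of 0.31, with 16 of 25 higher. Their level, as the mean log2(CPM + 1) over the list, ran from 5.75 to 5.90 with a median of 5.78 in the shock libraries, and was 5.36, 5.57, 5.68 and 5.68 in the box libraries, so the groups did not overlap. Among the 33 gene lists and 15 lists of cell markers, the groups overlapped in all others. The home cage libraries ran from 5.42 to 5.86, so that the highest lay inside the shock range. In 5 members every shock library was above every box library, as in 0.682% of all genes tested. Besides Shank1 and Shank3 these included Shank2 and Iqsec3 (an exchange factor of inhibitory postsynapses), named here after their values were seen, at 1.14 ± 0.34 and 0.52 ± 0.17 (log2, SE). In 1 member, Lrrtm2, an adhesion protein, every shock library was below, at -0.82 ± 0.20 (SE). The median of the list was 0.27 with GC and length offsets and 0.16 without shock libraries 3 to 6. Shank2 stood at 1.04 and 1.14 in those settings. Grin1, the obligatory subunit of NMDA receptors, ran from 103 to 208 CPM with a median of 181 after shock against 69.8, 95.5, 106 and 134 CPM, overlapping, at 0.75 ± 0.22 (SE), at 0.44 with the offsets and at 0.21 without shock libraries 3 to 6.

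Ribosomal protein, respiratory chain, proteasome and glycolysis genes had higher means after shock in most members, whereas translation factor genes were balanced with all libraries (34 of 68 higher, median 0.01). With GC and length offsets 49 of the 68 translation factor genes were higher, with a median of 0.17. Without shock libraries 3 to 6 their median was 0.05. Among cytosolic ribosomal protein genes 72 of 84 were higher, with a median of 0.42. Their level ran from 6.27 to 6.68 with a median of 6.40 in the shock libraries, and was 5.94, 6.18, 6.22 and 6.33 in the box libraries, so that shock libraries 1 and 2 lay just below the highest box value. Rps28 had the smallest p of the list and ran from 38.4 to 56.8 CPM with a median of 47.0 against 29.6, 31.1, 32.7 and 38.9 CPM, overlapping, at 0.54 ± 0.15 (SE). The counting could share reads between ribosomal protein genes and their pseudogenes, so their single values are uncertain. The median was 0.26 with the offsets and 0.13 without shock libraries 3 to 6, and it was 0.25 in the lysates.

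All 16 glycolysis genes, among them Ldhb, a lactate dehydrogenase subunit (0.46 ± 0.16, SE), had higher means, with a median of 0.45. The level of the list ran from 8.18 to 9.03 with a median of 8.86 in the shock libraries, and was 7.82, 8.26, 8.40 and 8.66 in the box libraries. Shock libraries 3 to 6 were above all box libraries, and shock 1 and 2 were below the median of the box libraries. Without shock libraries 3 to 6 the median of the list was -0.09, of the other sign, and with the offsets it was 0.26. Mitochondrial ribosomal protein genes (61 of 77 higher, median 0.27), respiratory complex I (27 of 44, 0.26), complexes II to V (32 of 48, 0.29) and the proteasome (32 of 48, 0.23) had medians of 0.19 to 0.25 with the offsets and of 0.06 to 0.12 without shock libraries 3 to 6. Uqcrq, a subunit of complex III, ran from 674 to 1118 CPM with a median of 1031 after shock against 547, 676, 723 and 764 CPM, overlapping.

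GABA-A receptor subunit genes, which encode the channels that inhibitory synapses open, had lower means after shock in all but 2 of 15 members, with a median of -0.55. Their level ran from 4.60 to 5.30 with a median of 4.80 in the shock libraries, and was 5.24, 5.28, 5.28 and 5.79 in the box libraries. Shock 2 lay within the range of the box libraries, shock 1 just below it and shock libraries 3 to 6 further below. Gabrb2, a beta subunit, ran from 265 to 842 CPM with a median of 469 against 746, 752, 894 and 1386 CPM, overlapping, and was named after its values were seen. The smallest p of the list belonged to Gabra6, a cerebellar subunit that was at 0 in most shock libraries and reached 43.4 CPM in 1 box library only. The transcripts of the list had a median GC content of 42.2%, against 49.9% over all genes tested. The median of the list was -0.34 without box 2, -0.14 with the offsets and -0.09 without shock libraries 3 to 6. Slc12a2, the chloride importer, ran from 11.2 to 28.7 CPM with a median of 16.5 after shock against 27.1, 39.2, 45.5 and 48.0 CPM, at -1.10 ± 0.25 (SE).

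**Figure D4:**
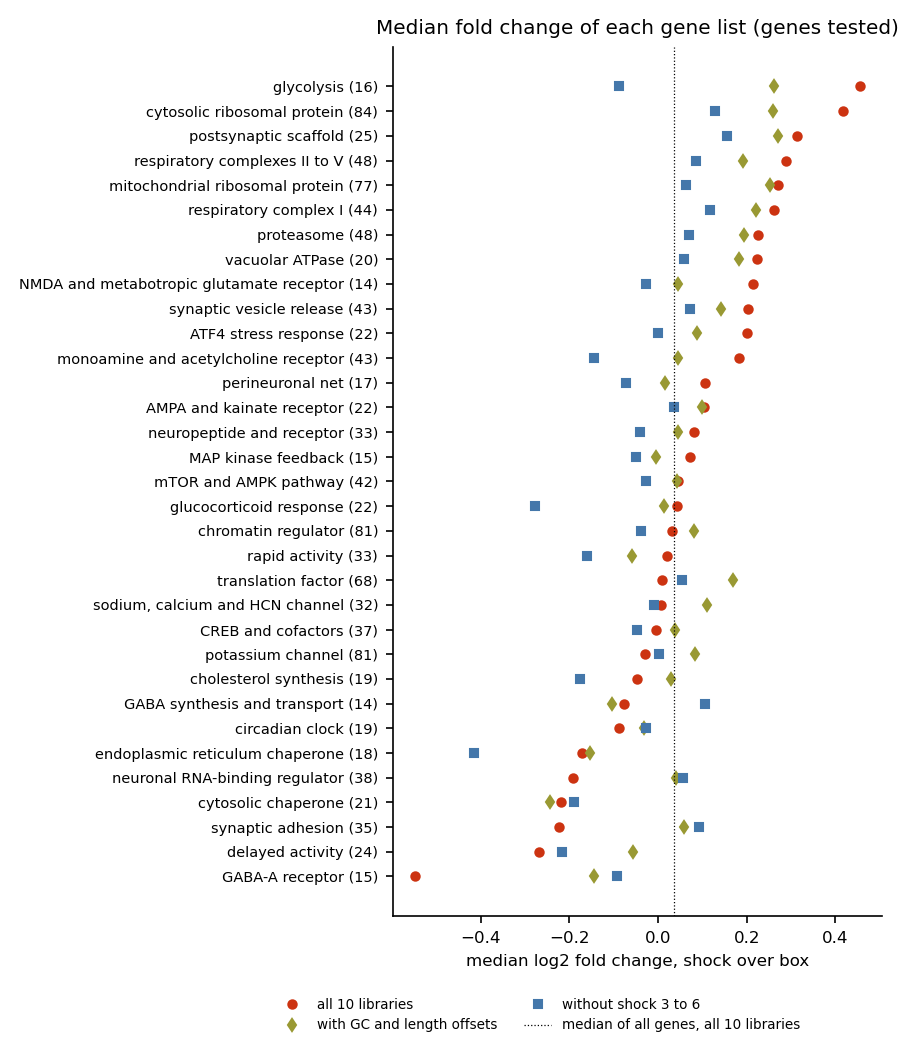
Median log2 fold change, shock over box (x axis), of 33 gene lists (y axis, number of genes tested in parentheses) with all libraries (red circles), with GC and length offsets (olive diamonds) and without shock libraries 3 to 6 (blue squares). The dotted line is the median of all genes with all libraries. Glycolysis lies at 0.45 with all libraries and at -0.09 without shock libraries 3 to 6, and GABA-A receptor genes at -0.55 and -0.09.

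Rapid activity-induced genes are transcribed within minutes of strong input, and those named here had overlapping groups apart from 1, Fbxo33. Arc, which encodes a synaptic capsid-like protein that regulates AMPA receptors, ran from 80.8 to 189 CPM with a median of 121 after shock and stood at 34.8, 76.0, 129 and 146 CPM in the box libraries, with home cage libraries from 44.7 to 82.4 CPM. The groups overlapped, and the log2 fold change was 0.39 ± 0.30 (SE, edgeR adjusted p = 0.488), or -0.18 without shock libraries 3 to 6. Fos, a subunit of the AP-1 transcription factor, ran from 29.0 to 59.4 CPM with a median of 40.5 against 27.3, 42.8, 51.7 and 54.3 CPM, at -0.03 ± 0.27 (SE). Egr1, an early-response transcription factor, ran from 75.9 to 149 CPM with a median of 89.0 against 66.7, 96.8, 105 and 116 CPM, at 0.02 ± 0.20 (SE), and its highest value came from shock 1.

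Nr4a1, an orphan nuclear receptor induced by activity, ran from 24.6 to 53.0 CPM with a median of 31.3 against 18.6, 22.8, 37.7 and 39.0 CPM, at 0.32 ± 0.24 (SE). Npas4, a neuron-specific activity-dependent transcription factor, was read at a low level, from 0.430 to 1.79 CPM with a median of 1.31 against 0.224, 0.671, 0.890 and 0.997 CPM, at 0.86 ± 0.77 (SE). The groups of both genes overlapped. Over the list of rapid genes 19 of 33 had higher means, with a median of 0.02. Fbxo33, a ubiquitin-ligase subunit, had the smallest p of the list and was lower, from 76.1 to 123 CPM with a median of 86.9 against 128, 130.1, 136 and 156 CPM, without overlap, at -0.52 ± 0.16 (SE).

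Genes of the delayed wave of activity-induced transcription had lower means after shock in 17 of 24 members, with a median of -0.27. Bdnf, a neurotrophin, ran from 15.4 to 28.8 CPM with a median of 26.0 against 25.1, 31.5, 37.8 and 46.0 CPM, with overlap, at -0.49 ± 0.20 (SE, edgeR adjusted p = 0.193), and at -0.07 with GC and length offsets. Crem, which encodes activators and repressors of cAMP-responsive genes, ran from 16 to 22.6 CPM with a median of 18.0 against 24.3, 26.6, 32.9 and 40.7 CPM, without overlap, at -0.72 ± 0.18 (SE) and at -0.36 with the offsets. The median of the list was -0.17 without box 2, -0.06 with the offsets and -0.22 without shock libraries 3 to 6.

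**Figure D5:**
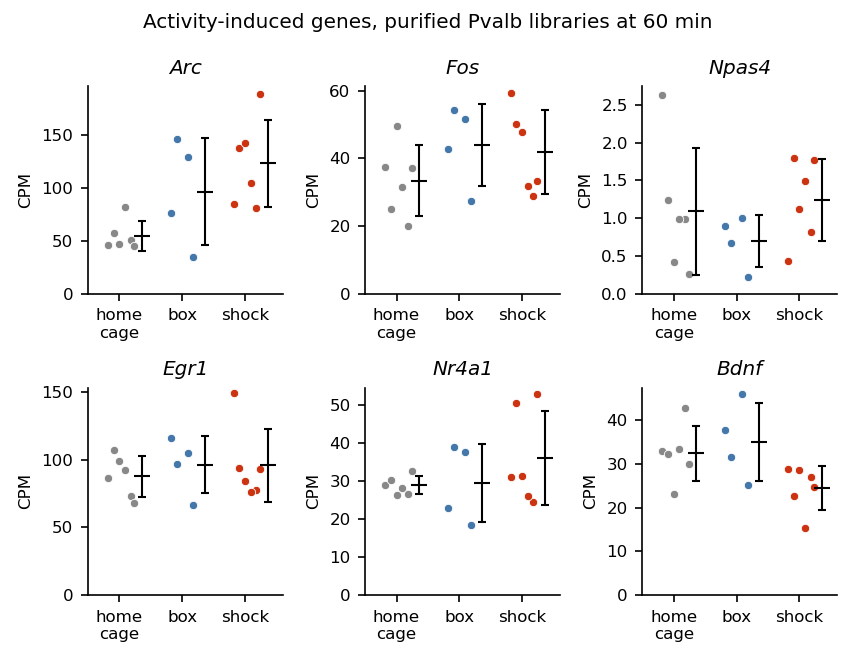
Levels (y axis, CPM, linear from 0) of 6 activity-induced genes in each purified Pvalb library at 60 min (x axis: home cage grey, 6 libraries; box blue, 4; shock red, 6), with mean and SD as black bars. Box and shock points overlap in all 6 genes.

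Protein-folding genes had lower means in most members. Of the cytosolic chaperone genes 4 of 21 were higher, with a median of -0.22, and of the endoplasmic reticulum chaperone genes 3 of 18, with a median of -0.17. Dnajb9, a co-chaperone of the endoplasmic reticulum, ran from 32.4 to 108 CPM with a median of 57.5 after shock against 88.6, 122, 137 and 192 CPM, and Dnajb4, a cytosolic co-chaperone, from 44.6 to 111 CPM with a median of 63.0 against 87.0, 107, 132 and 149 CPM. Both overlapped. The cytosolic list kept a median of -0.24 with the offsets and -0.19 without shock libraries 3 to 6, and the endoplasmic reticulum list -0.15 and -0.41. Single libraries moved both medians by over 1.5 times: the endoplasmic reticulum list ran from -0.30 without box 1 to -0.08 without shock 2 and also moved without box 4, shock 3 or shock 6, and the cytosolic list ran from -0.34 without box 3 to -0.12 without box 4 and also moved without shock 1. The endoplasmic reticulum list also had a median of -0.39 in the lysates.

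Of the parvalbumin neuron markers 5 of 10 were higher (median -0.02). The markers of all GABA neurons had 3 of 12 higher (median -0.20, and -0.25 with the offsets), those of somatostatin neurons 7 of 9 (0.18) and those of interneurons from the caudal ganglionic eminence 6 of 10 (0.20). Without shock libraries 3 to 6 the medians of these lists were 0.03, 0.15 and 0.04, so that of the GABA neuron markers turned sign. Kcnc1, the Kv3 potassium channel of fast-spiking cells, ran from 225 to 327 CPM with a median of 279 after shock against 206, 210.2, 212 and 227 CPM, overlapping in part. Acan, the perineuronal net proteoglycan that surrounds these cells, ran from 3.81 to 10.6 CPM with a median of 6.83 against 2.66, 3.33, 3.41 and 3.91 CPM, at 1.06 ± 0.35 (SE). The neuropeptide genes Sst and Npy, which mark neighbouring interneuron classes, ran from 523 to 869.5 CPM with a median of 674 against 361, 401, 497 and 687 CPM and from 1027 to 1772 CPM with a median of 1297 against 768, 801, 832 and 1251 CPM, both overlapping, at 0.51 ± 0.24 and 0.56 ± 0.18 (SE). The serotonin receptor gene Htr2c, which the choroid plexus also expresses, ran from 1.96 to 13.1 CPM with a median of 3.94 against 3.79, 27.4, 47.3 and 59.8 CPM, at -2.52 ± 0.56 (SE), and 7 of 7 choroid plexus markers were lower, with a median of -1.79. The lowest box value of Htr2c came from box 1, the box library with little choroid plexus RNA. Shock 6, with 5942 CPM of choroid plexus markers, had 11.0 CPM of Htr2c, and shock 2, with 351 CPM, had 13.1 CPM. The unnumbered home cage libraries, with 140 and 181 CPM of these markers, had 17.7 and 24.6 CPM of Htr2c. The part of that RNA in the result was not tested beyond a fit with the choroid plexus score as covariate, in which no gene passed.

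Genes that set the electrical and synaptic output of the cells were spread on both sides. Of the potassium channel genes 39 of 81 were higher (median -0.03), of the sodium, calcium and HCN channel genes 16 of 32 (0.01) and of the AMPA and kainate receptor genes 13 of 22 (0.10). Kcnab2, an auxiliary potassium channel subunit, ran from 277 to 531 CPM with a median of 442 against 216, 261, 284 and 350.2 CPM, overlapping, at 0.62 ± 0.19 (SE), at 0.31 with the offsets and at 0.04 without shock libraries 3 to 6. Among synaptic vesicle release genes 26 of 43 were higher (median 0.20), with Dnm1, the neuronal dynamin of vesicle recycling, at 0.55 ± 0.17 (SE), at 0.30 with the offsets and at 0.14 without shock libraries 3 to 6.

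Synaptic adhesion genes had a median of -0.22, with 14 of 35 higher. The sign of this median turned, to 0.06 with the offsets and to 0.09 without shock libraries 3 to 6, beside 0.07 and -0.05 over all genes. Lrrc4b, a postsynaptic adhesion protein, ran from 26.7 to 53.3 CPM with a median of 34.1 against 18.3, 19.3, 22.4 and 26.3 CPM, without overlap, at 0.74 ± 0.21 (SE) and at 0.35 with the offsets. Of the neuronal RNA-binding regulators 14 of 38 were higher, with a median of -0.19 and of 0.04 with the offsets, again beside 0.07 over all genes. Fxr2, a relative of the fragile X protein, ran from 75.1 to 113 CPM with a median of 99.8 against 55.9, 65.3, 71.8 and 83.7 CPM, overlapping. Rorb, a nuclear receptor of the clock list, ran from 3.27 to 7.89 CPM with a median of 5.70 against 8.90, 9.23, 12.3 and 15.5 CPM, without overlap, at -1.09 ± 0.29 (SE), at -0.60 with the offsets and at -1.04 without shock libraries 3 to 6. Sgk3, a kinase of the glucocorticoid response list, ran from 1.24 to 3.87 CPM with a median of 2.47 against 4.85, 6, 7.47 and 15.7 CPM, again without overlap, at -1.68 ± 0.53 (SE). Its home cage libraries ran from 0.873 to 19.9 CPM, across both groups. The list of 22 glucocorticoid response genes had 12 higher members and a median of 0.04.

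Markers of other cells the purified fraction could carry were also read. Pyramidal neuron markers had a median of 0.30 (7 of 12 higher), microglia markers of 0.22 (8 of 11), oligodendrocyte precursor markers of 0.50 (7 of 8) and astrocyte markers of -0.14 (5 of 11). Without shock libraries 3 to 6 these medians were -0.11, -0.52, 0.15 and 0.05. Leaving out 1 library at a time, they ran from 0.14 to 0.35, 0.10 to 0.31, 0.35 to 0.59 and -0.30 to -0.01. The part of these cells in the gene results was not tested beyond fits with a marker score as covariate. With the non-neuronal score 0 genes passed. With the own-class score, parvalbumin and GABA neuron markers less those of pyramidal, granule and non-neuronal cells, 1 gene passed.

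The home cage libraries give a reference level, and as both responses share them they are given only side by side. Postsynaptic scaffold genes had a median log2 fold change over home cage of 0.52 after shock and of -0.07 after context alone. For glycolysis these medians were 0.83 and 0.33, for GABA-A receptor genes -0.72 and -0.14, and for rapid activity genes 0.31 and 0.20. Shank3 ran from 13.0 to 28.0 CPM in the home cage, so that its highest value lay above the lowest shock value. B3galt1 ran from 57.9 to 89.4 CPM and Prkaa2 from 30.8 to 56.4 CPM, both above every shock library. The home cage libraries had GC slopes of -0.42 to -0.24, below those of all shock libraries.

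The lysates, which hold RNA of all hippocampal cells, were compared in the same way. Of 16606 genes tested over 6 shock and 4 box lysates, edgeR and DESeq2 each called 0, and 454 (2.73%) had an unadjusted edgeR p under 0.05. Shank1 and Shank3 had lysate log2 fold changes of 0.64 ± 0.23 and 0.51 ± 0.17 (SE), B3galt1 -0.09 ± 0.33 and Prkaa2 0.16 ± 0.27. The difference between the purified and the lysate response was tested directly over 17167 genes. No gene passed with edgeR, 1414 (8.24%) had an unadjusted p under 0.05, and DESeq2 called 74. Among the genes of smallest p, Mef2a, a transcription factor that restrains synapse number, differed by -1.11 ± 0.27 (SE), Pigm, an enzyme of membrane anchor synthesis, by -1.31 ± 0.32 and Zfp746 by 1.06 ± 0.26, all at an edgeR adjusted p of 0.590.

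The response at 60 min was then set against that of the same line in the set labelled 15 min, whose tables were made separately, so time and table cannot be told apart. At 15 min edgeR called 0 genes higher and 1 lower (0.00601%). For the difference between the times edgeR called 0 of 16642 genes, 491 (2.95%) had an unadjusted p under 0.05, and DESeq2 called 149. Acvr2a had the smallest p among genes with a lower response at 60 min, with -1.43 at 60 min against 0.55 ± 0.35 (SE) at 15 min, at an edgeR adjusted p of 0.9999 for the difference. Arc had a log2 fold change of 1.26 ± 0.37 (SE) at 15 min beside 0.39 at 60 min, and Nr4a1 0.76 ± 0.26 beside 0.32. Neither passed at 15 min (edgeR adjusted p = 0.108 and 0.143). Rapid activity genes had a median of 0.50 at 15 min and of 0.02 at 60 min. The transcripts of this list had a median GC content of 55.3%. At 15 min all genes of 50 to 55% GC had a median of 0.25, and those of 55 to 60% GC of 0.51. In the 15 min set the GC slope ran from -0.05 to 0.50 in 5 shock libraries and from -0.26 to -0.08 in 4 box libraries.

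The last comparison set the parvalbumin response at 60 min against that of Camk2a neurons, the excitatory class, with 5 shock and 3 box libraries. Here line and table cannot be told apart. The difference between the responses passed edgeR's test in 1086 genes with a higher value in Pvalb (6.51% of 16691) and in 675 with a lower one (4.04%). Within the Camk2a libraries edgeR called 2 genes higher (0.012%) and 6 lower (0.0359%) after shock. The count of differing genes fell to 0 without box 2 or without box 4 of the Pvalb set, to 9, 11, 12 and 12 without shock 3, 4, 5 or 6, and was 736 without box 1, 3422 without shock 1 and 3241 without shock 2. With GC and length offsets it was 0. The GC slope ran from -0.51 to 0.05 in the Camk2a shock libraries and from -0.04 to 0.32 in its box libraries, with the lower mean after shock, where in the Pvalb set the mean was higher after shock.

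Among the genes of smallest p, Mef2a had a log2 fold change of -0.79 ± 0.19 (SE) in Pvalb and 0.81 ± 0.22 in Camk2a neurons, a difference of -1.59 (edgeR adjusted p = 0.0213). Fcho2, which starts clathrin-coated pits, had -1.32 ± 0.35 and 1.69 ± 0.44, and Yod1 and Plaa, both of the ubiquitin system, differed by -3.24 and -1.93. In these 4 genes the fold change was negative in the Pvalb and positive in the Camk2a libraries. In the opposite direction Mtss1l, a membrane-bending protein, had 0.51 ± 0.16 in Pvalb and -0.66 ± 0.17 in Camk2a libraries, and Fam73b 0.50 ± 0.17 and -0.77 ± 0.19. For Gab1 and Oprd1, the delta opioid receptor gene, the difference came with Camk2a shock levels of 0.380 ± 0.181 and 0.0358 ± 0.0602 CPM (mean and SD, n = 5), and Pvalb fold changes of 0.12 and 0.22. By list, 5 postsynaptic scaffold genes had a higher response in Pvalb and 1 a lower one of 25, and for glycolysis these counts were 8 and 0 of 16 and for GABA-A receptor genes 0 and 4 of 15. Over all genes 6.51% were called higher and 4.04% lower, and with GC and length offsets no gene of any list was called. The median transcript GC content was 50.9% for the postsynaptic scaffold list, 53.2% for glycolysis and 42.2% for the GABA-A receptor list.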

How the data were processed

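The deposited tables hold counts of reads per gene for each library. Per the submitters' processing notes the authors used STAR 2.7.7a, featureCounts and DESeq2 with the GRCm38 build; which gene annotation was counted is not given in those notes. Libraries were made from polyadenylated RNA with a transposase kit that does not mark strand, so reads from a gene and an overlapping antisense gene cannot be told apart. Columns were matched to samples by their names; the 2 home cage columns without a usable number were kept as unnumbered, and 24 columns of other lysate groups in the same tables were not used.

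Genes were kept by edgeR's filterByExpr (16135 of 24391 in the purified table), scaled by TMM and tested with edgeR 4.0.16 (glmQLFit, glmQLFTest, R 4.3.3) with Benjamini-Hochberg adjustment at 0.05 and no block; responses in 2 tables were compared by an interaction term. A log2 fold change is shock over box, and SE is its standard error. DESeq2 1.42.0, other filters and scalings, a replicate block, GC and length offsets, covariates and leaving out each library were alternatives. Transcript GC content and length came from GENCODE M21. The edgeR test, but not DESeq2, was run on simulated counts with a fixed dispersion and no GC relation. That run cannot show how the test behaves under the GC slopes of these libraries. No 2 libraries of a group were duplicates, since the smallest reduced chi-square over the 36 pairs within groups was 91.3.

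The members and gene lists were chosen with earlier results of these data known. Named genes are the 12 per direction with the smallest p that do not overlap among those past the threshold, filled up by smallest p (here all 24); the member of each list with the smallest p; 4 per direction for each difference between responses; and Arc, Fos, Npas4, Egr1, Nr4a1, Bdnf, Pvalb and Sst. Unnamed gene models were left out. Total counts were at least 55234644 per library, and the median SE over genes, which holds both counting error and the spread between libraries, was 0.30. The median of all log2 fold changes was 0.04.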

Additional observations from a re-analysis of the deposited data

Results flagged for a closer look

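Among 74 groups of 4 to 10 libraries examined for a single library far from the rest, 5 had one, and chance alone marks about 1 in 20 groups. Ppp1r9b in shock 3 stood at 306 CPM, with the other shock libraries from 202 to 227 CPM. Eef1a2 stood out in the same library, at 37.2 CPM against 20.2 to 26.0 CPM. Egr1 stood out in shock 1, at 149 CPM against 75.9 to 93.5 CPM, and its mean fold change turns sign without that library. The choroid plexus score, the mean log2(CPM + 1) of 7 markers, was 7.01 in shock 6 and 2.57 to 3.76 in the other shock libraries. Acvr2a was 39.7 CPM in box 2 and 22.6 to 25.4 CPM in the other box libraries.

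The shock response differed between the Pvalb and Camk2a sets at 60 min by the interaction test in 1086 genes with a higher and 675 genes with a lower value in Pvalb, counts that fell to 0 with GC and length offsets and without box 2 or box 4 of the Pvalb set.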

How the results depend on the processing

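The count of genes called between shock and box in the purified fraction was 0 as reported, 593 with DESeq2 and 1 with shock and box libraries only. It was 1 with the own-class score as a covariate, the parvalbumin and GABA neuron scores less those of pyramidal, granule and non-neuronal cells. With GC and length offsets and shock 2 left out it was 86, a setting chosen after the data were seen. So were leaving out shock libraries 3 to 6, the choroid plexus covariate and the offsets in the comparison with Camk2a. Leaving out 1 library at a time gave 0 to 1419 calls, with shock 2 as the library that decides it. Purified minus lysate gave 74 with DESeq2 and 0 to 1 when 1 library was left out (1 without purified shock 3), and 60 minus 15 min gave 149 with DESeq2. Pvalb minus Camk2a, 1761 as reported, gave 3012 with DESeq2, 0 with the offsets and 0 to 3422 when 1 Pvalb library was left out. The other scalings and filters left each count within 1.5 times. Why DESeq2 and edgeR differ in their counts was not tested.

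The replicate number as a block gave 1 call for the purified comparison and 3 for Pvalb minus Camk2a. The numbers are not shown to pair the libraries: deviations of same-numbered shock and box libraries correlated at 0.02, 0.45, 0.12 and -0.06, and 1 of 4 libraries correlated best with its own number.

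All 24 leading genes kept their direction under every setting in which they were tested. They were picked by small p in these same libraries, so a kept direction was largely set by that choice. Among the activity genes, Arc was -0.18, Npas4 -0.13 and Nr4a1 -0.045 without shock libraries 3 to 6. When 1 library at a time was left out, Fos ran from -0.189 to 0.0583 and Egr1 from -0.161 to 0.127. Fos was 0.051 without shock libraries 3 to 6. Egr1 was -0.0059 with shock and box libraries only, -0.14 with the offsets, -0.10 with the offsets and the replicate block, -0.050 with the non-neuronal covariate, -0.00037 with sex as covariate, -0.12 with the offsets and without shock 2, and -0.063 with the choroid plexus covariate. The medians of 12 gene lists were followed over the settings, and 257 values were counted as the same and 31 as moved. The sign turned in some lists, as for glycolysis, at 0.45 with all libraries and -0.09 without shock libraries 3 to 6.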
